A study of Mus musculus with 11 samples.

Results

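The 29 genes described here make cholesterol, sense it or move it, and all 29 were found by symbol among the 19444 genes of the deposited table. They were grouped by role: 8 genes of the mevalonate arm, 12 of the sterol arm, 5 that control the pathway and 4 that transport or store sterol. The data come from single cells of the stellate ganglion, which sends sympathetic axons to the arm, chest and neck, taken from 6 male C57BL/6J mice aged 6 to 8 weeks. Axons had been traced back for 3 days with cholera toxin B, injected as CTB-555 into interscapular brown fat (iBAT) and as CTB-488 into the forelimb, and ganglia of 2 mice were pooled to give each of 3 sets. Cells were sorted into 96-well plates and their RNA was counted from 3' ends, with 4, 4 and 3 plates for Sets 1, 2 and 3. No treated or mutant group exists, so the comparisons are between the authors' cell clusters of the same animals.

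The table held 878 cells, where the submitters state 1039, and they carried 30518080 recovered counts. Cluster 4 had 54 cells, cluster 1 had 388 and cluster 2 had 335, with median counts per cell of 35488.5, 28396 and 40121. Cluster 3 was split at 30000 counts per cell into a high-count part of 47 cells (52105 to 107665 counts) and a low-count part of 54 cells (1536 to 18608 counts), and no cell lay between 18608 and 52105. Plates held 65 to 85 cells, and all 96 cell barcodes occurred on more than 1 plate. The noradrenergic markers of the ganglion were present in every class. Their summed level was 84.5 to 94.4 counts per 10000 in cluster 4, 138 to 155 in the high-count part of cluster 3, 49.5 to 142 in its low-count part, 325 to 342 in cluster 1 and 183 to 208 in cluster 2. The 4 cholinergic markers summed to 58.2 to 64.6 in cluster 4 and to at most 0.391 in clusters 1 and 2. The tracer of a given cell was not used here.

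Cholesterol synthesis starts from acetyl-CoA. The mevalonate arm builds isoprenoid units and joins them to farnesyl diphosphate; squalene synthase then commits that intermediate to sterols, and the sterol arm turns squalene by way of lanosterol into cholesterol. Much of the pathway is under the transcription factors SREBP1 and SREBP2, which the escort protein SCAP carries from the endoplasmic reticulum to the Golgi for cleavage when sterol is low and which the INSIG proteins hold back when it is high. Neurons need sterol for axon membrane and synaptic vesicles, and peripheral neurons can also take it up from neighbouring cells.

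The promoters of 5 members are shown, chosen by their level in cluster 4 as described further on. All were higher there than the mean of clusters 1 and 2, with all counts and in 1 draw of 15000 counts per cell. At that depth Pmvk alone passed both against cluster 1 alone and against cluster 2 alone. Each run is from RefSeq (build GRCm38.p6), holds 250 bases before and 50 after an annotated start, and reads 5′ to 3′ on the strand of the gene. Capitals mark the core of the sterol regulatory element (TCACNCCAC, N being any base) and the CCAAT box (CCAAT, or ATTGG for the other strand). The Hmgcs1 window, chr13:119690101-119690400 on the plus strand, held 1 such core and 4 CCAAT boxes.
Hmgcs1: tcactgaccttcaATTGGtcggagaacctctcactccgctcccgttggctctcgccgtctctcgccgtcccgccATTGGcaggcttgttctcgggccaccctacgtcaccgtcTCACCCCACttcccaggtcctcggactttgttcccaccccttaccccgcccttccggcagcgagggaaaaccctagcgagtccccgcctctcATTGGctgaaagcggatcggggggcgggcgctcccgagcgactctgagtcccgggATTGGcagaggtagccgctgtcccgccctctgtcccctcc
The windows of Mvk (chr5:114444019-114444318, plus strand), Pmvk (chr3:89454291-89454590, plus strand) and Ebp (chrX:8193463-8193762, minus strand) held 5, 1 and 2 CCAAT boxes and no sterol regulatory core.
Mvk: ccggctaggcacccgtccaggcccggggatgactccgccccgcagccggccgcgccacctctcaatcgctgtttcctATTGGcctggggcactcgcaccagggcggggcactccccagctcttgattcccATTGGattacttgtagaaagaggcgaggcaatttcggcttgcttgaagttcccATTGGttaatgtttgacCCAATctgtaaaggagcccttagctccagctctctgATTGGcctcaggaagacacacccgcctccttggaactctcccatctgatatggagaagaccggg
Pmvk: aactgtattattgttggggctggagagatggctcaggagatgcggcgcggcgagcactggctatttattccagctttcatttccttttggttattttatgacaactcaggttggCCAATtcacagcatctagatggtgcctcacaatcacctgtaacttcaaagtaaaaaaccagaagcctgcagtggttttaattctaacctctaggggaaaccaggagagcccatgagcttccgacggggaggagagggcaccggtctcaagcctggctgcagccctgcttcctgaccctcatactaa
Ebp: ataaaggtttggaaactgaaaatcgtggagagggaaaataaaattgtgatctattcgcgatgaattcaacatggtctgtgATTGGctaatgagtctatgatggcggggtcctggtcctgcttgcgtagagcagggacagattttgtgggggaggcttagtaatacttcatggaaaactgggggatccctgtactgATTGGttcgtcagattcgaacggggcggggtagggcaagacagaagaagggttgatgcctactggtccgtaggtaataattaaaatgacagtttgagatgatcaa
The window of Acat2 (chr17:12960676-12960975, minus strand) held neither.
Acat2: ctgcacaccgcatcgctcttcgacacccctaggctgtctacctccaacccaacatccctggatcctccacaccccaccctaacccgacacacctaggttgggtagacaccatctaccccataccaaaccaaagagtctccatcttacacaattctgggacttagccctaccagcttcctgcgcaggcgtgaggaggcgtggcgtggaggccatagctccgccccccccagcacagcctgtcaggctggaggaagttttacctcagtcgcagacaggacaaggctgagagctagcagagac

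Promoter windows were at hand for 24 of the 29 members, 32 windows in all, and motifs were searched as exact letters on both strands. The sterol regulatory core occurred in 1 of the 24 members, Hmgcs1, where TCACCCCAC lay on the plus strand at position -137 from the start, and in 1.44% of 27025 genes. A CCAAT box occurred in 22 of 24 members, against 41.1% of all genes. The GC box (GGGCGG) likewise occurred in 22 of 24 members, against 38.2% of all genes, and the E-box CACGTG in 5 of 24, against 8.09%. A match is a run of letters and not a binding site, and windows without a match may hold sites of another form.

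Some members share sequence with other genes, and the sources used here do not give how such reads were assigned. Of the distinct runs of 50 bases in Acat2 transcripts (GENCODE M21), 39.1% also occur in Acat3, a neighbouring paralogue on chromosome 17 that is not analysed here. The share found in other genes was 26.5% for Fdft1, mostly in Ctsb on the opposite strand, with 774 overlapping exon bases. It was 26.2% for Fdps, mostly in Gm43738 on the same strand, and 25.3% for Idi1. For Hmgcs1 it was 11.6% and for each of Ggps1, Scap, Tm7sf2 and Lbr under 10%. Whether counting used strand is not given either, so reads of Fdft1 and Ctsb cannot be told apart where they overlap. All these shares are over whole transcripts, while RNA was counted from 3' ends. The share of counted reads that falls in shared runs may thus be larger or smaller, and was not measured.

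All levels below are the mean over cells of counts per 10000 in each set. Summed over the 29 genes, the level in Sets 1, 2 and 3 was 42.6, 43.7 and 53.7 in cluster 4, 42.6, 47.1 and 53.6 in high-count cluster 3, 19.2, 28.2 and 19.1 in low-count cluster 3, 41.2, 41.8 and 49.9 in cluster 1 and 36.3, 37.7 and 44.5 in cluster 2. In each set the sum was thus lowest in low-count cluster 3 and lowest among the other classes in cluster 2. Counts come from 3' ends, so transcript length was not used to scale them, and levels are compared between cell classes rather than between genes. Idi1, the isomerase that makes dimethylallyl diphosphate, had 0.0415 ± 0.0195 counts per 10000 in cluster 4, against 0.0383 ± 0.0106 in cluster 1 and 0.0407 ± 0.000814 in cluster 2 (mean ± SD, n = 3 sets). Lbr, the lamin B receptor with sterol reductase activity, had 0.0235 ± 0.0176 in cluster 4, against 0.0201 ± 0.0130 in cluster 1 and 0.0184 ± 0.0109 in cluster 2. Both lay under the minimum mean level of 0.05 and were not tested, so 27 members were tested in each comparison.

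The 27 tested members differed in where they peaked. Among cluster 4, high-count cluster 3, cluster 1 and cluster 2, the mean level was highest in high-count cluster 3 for 12 members, in cluster 4 for 10, in cluster 1 for 4 and in cluster 2 for 1. It was lowest in cluster 2 for 11, in cluster 1 for 9, in cluster 4 for 7 and in high-count cluster 3 for 0. Low-count cluster 3 was the lowest of the 5 classes for 21 of 27. These ranks use mean levels without their spread; the tests that follow say which steps exceed it.

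**Figure D1:**
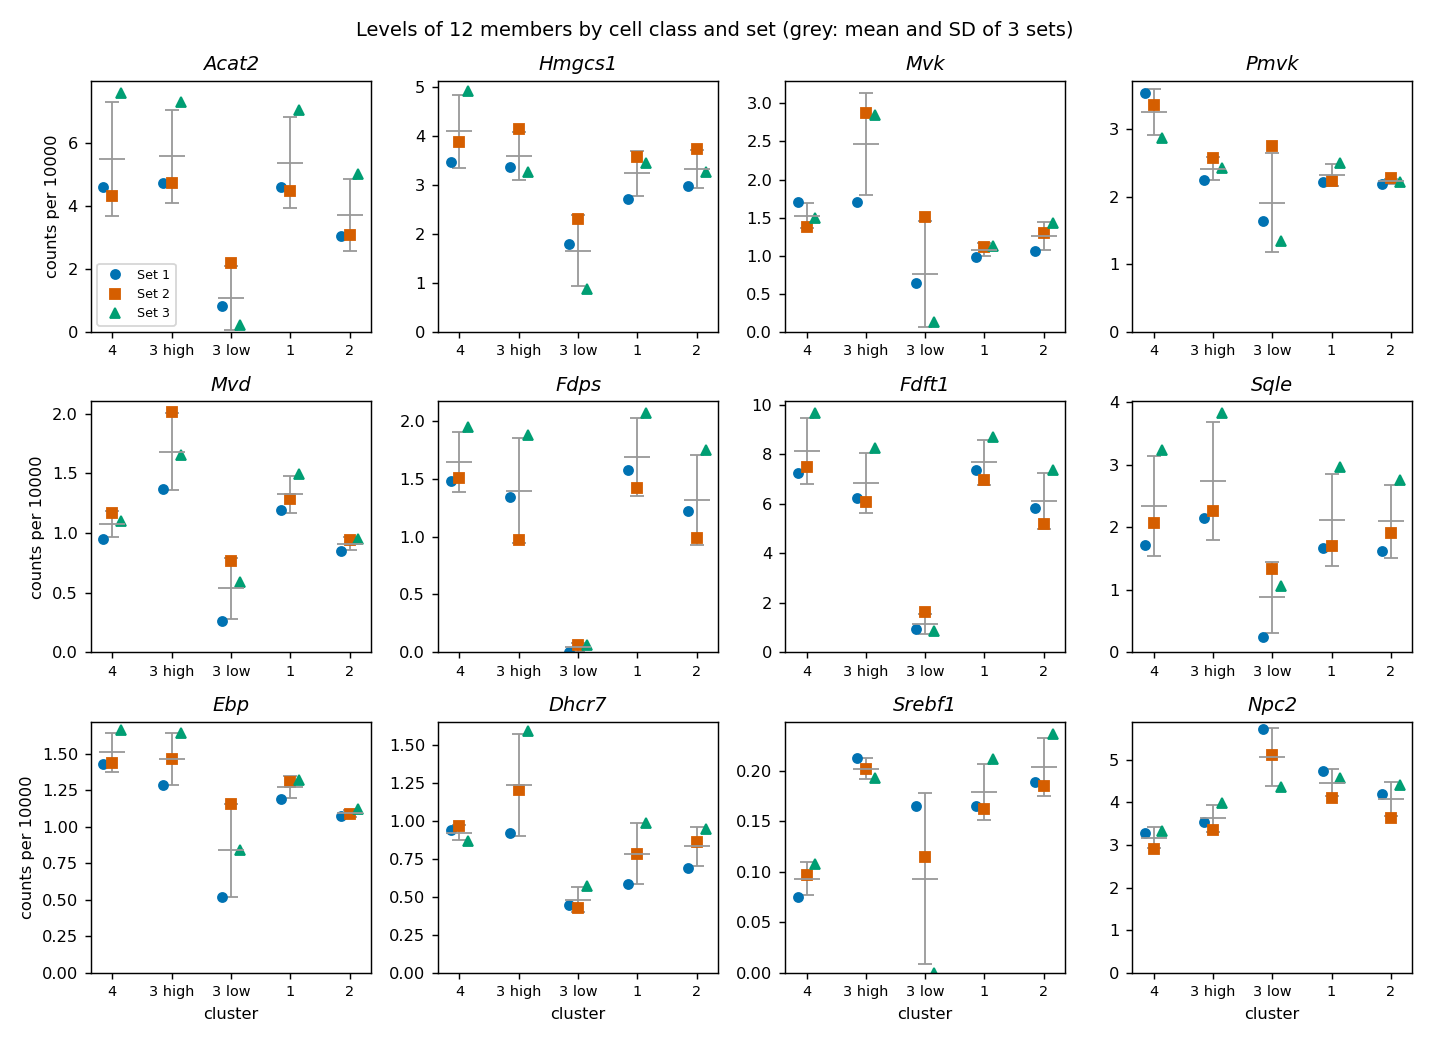
Mean level (counts per 10000, vertical axis) of 12 members in each cell class (horizontal axis, cluster numbers; 3 high and 3 low are the parts of cluster 3 above and below 30000 counts per cell). Points are the 3 sets, grey marks the mean and SD. Acat2 lies between 3.04 and 7.60 in the classes other than low-count cluster 3, with Set 3 on top in each of them, and Mvk is highest in high-count cluster 3 in 2 of 3 sets.

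Differences were tested with limma, with the set as a block. Each cell's level entered as log2(1 + counts per 10000), averaged over the cells of a class in each set. Adjusted p-values are Benjamini-Hochberg over all genes of the table that were tested, with a threshold of 0.05. On this scale the log2 difference understates the change of genes with low levels. The clusters were made by the authors from the same cells, so a p-value here says how well a difference repeats over the 3 sets.

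In cluster 4, 5 genes of the mevalonate arm were higher than the mean of clusters 1 and 2, and with them 3 of the sterol arm and 1 control gene, while Npc2 and Srebf1 were lower. That is 9 members higher and 2 lower of 27, against 11.5% of all 10518 genes higher and 11.5% lower. The median log2 difference was 0.06 over the 27 members and -0.0012 over all genes. By role, 5 of 7 tested mevalonate genes, 3 of 11 sterol arm genes and 1 of 5 control genes were higher, and the control gene Srebf1 was the one lower. Of the 4 transport and storage genes 0 were higher and 1 was lower.

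Pmvk encodes phosphomevalonate kinase, which adds the second phosphate to mevalonate; the gene lies on chromosome 3 (89454541 to 89469013, plus strand, GRCm38). It had 3.53, 3.36 and 2.87 counts per 10000 in Sets 1, 2 and 3 of cluster 4, against 2.23, 2.24 and 2.505 in cluster 1 and 2.19, 2.27 and 2.23 in cluster 2. The 3 values of cluster 4 lay above all 6 others, and the log2 difference was 0.37 ± 0.0576 (SE; limma adjusted p = 6.0e-05). Its call held in 14 of 15 other settings.

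Acat2, the cytosolic thiolase that joins molecules of acetyl-CoA, had 4.60, 4.33 and 7.60 in cluster 4, against 4.60, 4.49 and 7.05 in cluster 1 and 3.04, 3.07 and 5.03 in cluster 2. Cluster 4 was close to cluster 1 in each set and above cluster 2. The log2 difference from the mean of clusters 1 and 2 was 0.27 ± 0.0439 (adjusted p = 9.6e-05), yet against cluster 1 alone it was 0.06 (adjusted p = 0.43) and against cluster 2 alone 0.48 (adjusted p = 5.8e-07). Fdft1, squalene synthase, showed the same split. It had 7.26, 7.48 and 9.69 in cluster 4, against 7.36, 6.98 and 8.69 in cluster 1 and 5.83, 5.17 and 7.36 in cluster 2, with log2 differences of 0.10 (adjusted p = 0.19) from cluster 1 and 0.38 (adjusted p = 1.1e-05) from cluster 2. Its overlap partner Ctsb, a lysosomal protease, was also higher in cluster 4 than in clusters 1 and 2, by 0.35 ± 0.0449 (adjusted p = 5.0e-06), and the part of shared reads in the Fdft1 difference was not tested.

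Hmgcs1, the cytosolic HMG-CoA synthase, had 3.47, 3.87 and 4.91 in cluster 4, against 2.71, 3.55 and 3.44 in cluster 1 and 2.97, 3.73 and 3.26 in cluster 2. Cluster 4 was above clusters 1 and 2 in each set, by little in Set 2, and the log2 difference was 0.27 ± 0.0669 (adjusted p = 0.0059). Mvk, mevalonate kinase, had 1.70, 1.38 and 1.497 in cluster 4, against 0.978, 1.12 and 1.13 in cluster 1 and 1.06, 1.30 and 1.43 in cluster 2. Its difference of 0.24 ± 0.0837 passed narrowly (adjusted p = 0.048) and did not pass when any 1 of the 3 sets was left out. Ggps1, which makes geranylgeranyl diphosphate for protein prenylation, was higher by 0.11 ± 0.0354 (adjusted p = 0.026), and its opposite-strand neighbour Arid4b was higher too, by 0.14 (adjusted p = 0.023), with 257 exon bases shared.

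In the sterol arm, Ebp (the isomerase that moves the double bond of the sterol ring) had 1.43, 1.43 and 1.66 in cluster 4, against 1.19, 1.31 and 1.32 in cluster 1 and 1.07, 1.09 and 1.12 in cluster 2. All 3 values of cluster 4 exceeded the 6 others, and the difference was 0.23 ± 0.0483 (adjusted p = 0.0014). Msmo1, the sterol C4-methyl oxidase, was higher by 0.17 ± 0.0461 (adjusted p = 0.0090). The other sterol arm genes tested (Sqle, Lss, Cyp51, Tm7sf2, Nsdhl, Hsd17b7, Sc5d and Dhcr7) had log2 differences between -0.09 and 0.11 and did not pass. Mvd and Fdps of the mevalonate arm did not pass either, at -0.01 and 0.06.

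Among the control genes, Insig2, which retains SCAP in the endoplasmic reticulum, had 1.33, 1.36 and 1.94 in cluster 4, against 1.18, 1.12 and 1.31 in cluster 1 and 1.17, 1.13 and 1.47 in cluster 2, a log2 difference of 0.19 ± 0.0503 (adjusted p = 0.0089). Srebf1, the gene of SREBP1, had 0.0754, 0.0963 and 0.108 in cluster 4, against 0.165, 0.162 and 0.211 in cluster 1 and 0.189, 0.185 and 0.237 in cluster 2. The groups did not overlap, cluster 4 had 0.487 ± 0.0646 times the mean of clusters 1 and 2 (SD of the ratio over 3 sets), and the log2 difference was -0.11 ± 0.0265 (adjusted p = 0.0049). The values of cluster 4 rest on 21 counts. Srebf2, the gene of SREBP2, differed by -0.11 ± 0.0564 and did not pass (adjusted p = 0.17), nor did Insig1 (-0.05) or Scap (0.06).

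Npc2, the lysosomal protein that hands cholesterol to NPC1 for export, had 3.28, 2.90 and 3.34 in cluster 4, against 4.72, 4.11 and 4.56 in cluster 1 and 4.19, 3.63 and 4.42 in cluster 2. Each cluster 4 value was below all 6 others, and the log2 difference was -0.34 ± 0.0452 (adjusted p = 9.9e-06), a call kept in 14 of 15 other settings. Npc1, its membrane partner, had 0.120, 0.108 and 0.0828 in cluster 4, against 0.125, 0.173 and 0.111 in cluster 1 and 0.119, 0.152 and 0.0914 in cluster 2, and did not pass (adjusted p = 0.50). Stard4, a cytosolic sterol carrier, and Soat1, which esterifies cholesterol, did not pass, at -0.09 and 0.03.

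Set against cluster 1 alone, 7 members were higher in cluster 4 (Ebp, Ggps1, Hmgcs1, Insig2, Msmo1, Mvk and Pmvk) and 2 lower, against 11.1% and 8.85% of all genes. Against cluster 2 alone, 7 were higher (Acat2, Ebp, Fdft1, Hmgcs1, Insig2, Msmo1 and Pmvk) and 2 lower, against 8.76% and 10.1%. Npc2 and Srebf1 were the 2 lower genes in both. Ebp, Hmgcs1, Insig2, Msmo1 and Pmvk were higher against both. At 15000 counts per cell Hmgcs1, Mvk and Pmvk were higher than in cluster 1 and Npc2 lower, 3 and 1 of 27 against 5.44% and 4.71% of all genes. At that depth Acat2, Ebp, Fdft1 and Pmvk were higher than in cluster 2 and 0 members lower, 4 of 27 against 4.91% and 4.52%, so that Pmvk alone passed against both. Thinning every cell to 15000 counts left out 87 shallower cells, 53 of them in low-count cluster 3, which is not in this fit. From the classes fitted it left out 21 cells of cluster 1, 12 of cluster 2 and 1 of cluster 4. At that depth 5 members stayed higher than the mean of clusters 1 and 2 (Acat2, Ebp, Hmgcs1, Mvk and Pmvk). Npc2 stayed lower. Over all 10499 genes 6.20% were higher and 6.02% lower. Averaging 10 such draws, a step added after the data were seen, gave the same 9 higher and 2 lower members as all counts, against 10.4% and 11.1% of 10489 genes.

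With Set 1, 2 or 3 left out, 5, 6 and 4 members were higher. The shares of all genes that passed are not given for these 3 cases. Ggps1, Msmo1 and Mvk did not pass in any of the 3 cases, Hmgcs1 not without Set 1 (adjusted p = 0.054) or Set 3 (0.062), and Insig2 not without Set 3 (0.13).

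The 10 glial markers summed to 11.5 to 19.4 counts per 10000 in cluster 4, against 7.74 to 9.47 in cluster 1 and 8.37 to 10.9 in cluster 2. Without the 10% of cells of each class richest in glial counts, 9 members were still higher and 2 lower. That step left out 6 of the 54 cells of cluster 4. Whether glial levels then became alike between the classes was not tested. The share of all genes that passed is not given for that setting. The endothelial sum was at most 1.102 in cluster 4, and 5 of its 8 markers were at 0 there.

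Other genes of lipid metabolism, from lists chosen by function, gave a mixed picture in cluster 4. Of 14 tested fatty acid genes, 4 were higher, where 11.5% of all genes were: Acly, which makes cytosolic acetyl-CoA, by 0.38 ± 0.0559, Scd1 by 0.28, Fads1 by 0.22 and Acsl3 by 0.19. Elovl6, an elongase, was lower by 0.30 on the log2 scale. Of 9 genes of SREBP processing, Sec23a was lower and none was higher, and of 10 further genes of synthesis and its branches none passed with limma (0 at an unadjusted p under 0.05). Of 20 genes of sterol uptake, efflux and movement, Abca1 (0.38) and Osbp (0.08) were higher, Stard5 (-0.32) and Lamp1 (-0.17) lower. That is 2 and 2 of 20, and 1 of 9 lower in SREBP processing. Over all genes 11.5% were higher and 11.5% lower, so these counts lie near the shares of all genes.

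Cluster 1 against cluster 2 gave few member differences. Acat2, Fdft1, Mvd and Fdps were higher in cluster 1, 4 of 27 members against 3.37% of all genes, and none was lower with limma, against 4.71% (4 members had an unadjusted p under 0.05). Acat2 differed by 0.41 ± 0.0507 (adjusted p = 7.6e-06), and its level in cluster 1 was 1.46 ± 0.0552 times that in cluster 2 (SD of the ratio over 3 sets). Fdft1, whose values by set are given above, was higher by 0.29 ± 0.051 (adjusted p = 0.00069), while its partner Ctsb went the other way (-0.24, adjusted p = 0.0039).

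Mvd, the decarboxylase that yields isopentenyl diphosphate, had 1.19, 1.29 and 1.49 in cluster 1, against 0.848, 0.938 and 0.949 in cluster 2, with no overlap and a difference of 0.24 ± 0.0649 (adjusted p = 0.022). Fdps, farnesyl diphosphate synthase, had 1.58, 1.42 and 2.07 in cluster 1, against 1.22, 0.989 and 1.75 in cluster 2. Cluster 1 was higher in each of the 3 sets, although the ranges overlap, and the difference of 0.20 ± 0.0598 was at the threshold (adjusted p = 0.049). At 15000 counts per cell Acat2 and Fdft1 stayed higher and 0 members were lower, against 1.92% and 1.73% of all genes. With any 1 set left out, Acat2 and Fdft1 passed and Mvd and Fdps did not. The mean of 10 draws kept Acat2, Fdft1 and Mvd, against 3.49%, with 0 lower against 3.79%. Acly was again among the other genes that passed, higher in cluster 1 by 0.46 ± 0.0646, with Acat1 (the mitochondrial thiolase) and Stard5 higher and Lamp1 lower. That is 1 of 14 fatty acid genes and 1 of 10 further synthesis genes higher, and 1 higher and 1 lower of 20 uptake genes. Over all genes 3.37% were higher and 4.71% lower.

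In high-count cluster 3 most tested genes of the sterol arm were higher with all counts, and 1 of them held in a single draw of equal depth. Compared with clusters 1 and 2, 13 members were higher and 1 was lower of 27, against 11.0% and 4.92% of all genes, and the median difference was 0.14 over the members and 0.02 over all genes. The higher ones were 3 of 7 mevalonate genes (Acat2, Mvk and Mvd), 9 of 11 sterol arm genes and the carrier Stard4. Of the 5 control genes 0 passed in either direction, while the same fit passed 14 other members.

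Mvk changed most. It had 1.70, 2.87 and 2.84 in high-count cluster 3, against 0.978, 1.12 and 1.13 in cluster 1 and 1.06, 1.30 and 1.43 in cluster 2. All 3 values exceeded the 6 others, the ratio to the mean of clusters 1 and 2 was 2.09 ± 0.374 (SD, n = 3 sets), and the log2 difference was 0.69 ± 0.0837 (adjusted p = 2.7e-05). At 15000 counts per cell it was 0.77 (adjusted p = 2.1e-07). Mvd had 1.37, 2.02 and 1.65 in high-count cluster 3, against 1.19, 1.29 and 1.49 in cluster 1 and 0.848, 0.938 and 0.949 in cluster 2, a difference of 0.34 ± 0.0562 (adjusted p = 0.00021). Acat2 had 4.73, 4.72 and 7.29 there, close to its levels in cluster 1, so its difference of 0.28 (adjusted p = 0.00012) came with 0.07 against cluster 1 alone (adjusted p = 0.37) and 0.48 against cluster 2 alone (adjusted p = 2.6e-06).

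Sqle, squalene epoxidase, had 2.14, 2.26 and 3.84 in high-count cluster 3, against 1.67, 1.71 and 2.97 in cluster 1 and 1.63, 1.91 and 2.75 in cluster 2. It was highest there in each set, by 0.30 ± 0.05 (adjusted p = 0.00019). Dhcr7, the reductase that makes cholesterol in the last step of one branch, had 0.922, 1.20 and 1.59, against 0.586, 0.779 and 0.984 in cluster 1 and 0.691, 0.857 and 0.943 in cluster 2, a difference of 0.32 ± 0.0621 (adjusted p = 0.0010). Hsd17b7, a sterol ketoreductase, had 0.831, 0.884 and 0.783 in high-count cluster 3, against 0.516, 0.682 and 0.468 in cluster 1 and 0.615, 0.794 and 0.522 in cluster 2, and exceeded both in each set (0.23 ± 0.0454, adjusted p = 0.0015).

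Tm7sf2, a sterol reductase, had 0.777, 0.805 and 1.12 in high-count cluster 3, against 0.621, 0.631 and 0.780 in cluster 1 and 0.541, 0.615 and 0.747 in cluster 2 (0.21 ± 0.046, adjusted p = 0.0027). Vps51, which shares 532 exon bases with it on the same strand, differed by 0.09 and did not pass (adjusted p = 0.29). Ebp had 1.29, 1.46 and 1.64 in high-count cluster 3, above clusters 1 and 2 of the same set each time, and differed by 0.21 ± 0.0483 (adjusted p = 0.0042). The remaining higher members (Lss, Cyp51, Msmo1, Sc5d and Stard4) had log2 differences of 0.14 to 0.23. Stard4 was higher in 2 of 3 sets, and Nsdhl and Fdft1 of the sterol arm did not pass, at 0.09 and 0.02. Npc2 was the lower one, at 3.55, 3.36 and 3.98 in high-count cluster 3 and -0.15 ± 0.0452 (adjusted p = 0.027), and did not pass with any 1 set left out.

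Against cluster 1 alone 10 members were higher and 1 lower in high-count cluster 3, against 14.2% and 5.78% of all genes; Acat2, Cyp51 and Stard4 no longer passed. Against cluster 2 alone 13 were higher and 0 lower, against 4.13% and 2.34%. At 15000 counts per cell Dhcr7 and Mvk were higher than in cluster 1 and 0 members lower, 2 of 27 against 4.46% and 3.92% of all genes. At that depth Acat2 and Mvk were higher than in cluster 2 and 0 members lower, 2 of 27 against 1.04% and 1.08%. With all counts, the median cell of this class held 68061, more than any other class. At 15000 counts per cell 3 members were higher, Acat2, Dhcr7 and Mvk, and 0 were lower, against 3.65% and 3.27% of all genes. The mean of 10 draws gave 9 higher (Acat2, Dhcr7, Hsd17b7, Lss, Msmo1, Mvd, Mvk, Sc5d and Sqle) and 1 lower, Npc2, against 6.43% and 5.41%. Without Set 2, 8 members were higher, and Cyp51, Ebp, Msmo1, Sc5d and Stard4 did not pass then. The share of all genes that passed is not given for that case. For Sqle the single draw gave 0.08 and the mean of 10 draws 0.29 (adjusted p = 0.0012).

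Of 14 fatty acid genes in this class, 7 were higher with all counts (Acss2, Elovl5, Elovl6, Fads1, Fasn, Lpin1 and Mid1ip1) and 0 were lower, at log2 differences of 0.16 to 0.31. Over all genes, 11.0% were higher. In the single draw of 15000 counts Elovl6 was the one that passed, 1 of 14 against 3.65% of all genes. In the mean of 10 draws Acss2, Elovl5 and Fasn passed and Elovl6 did not, 3 of 14 against 6.43%. Of the 10 further genes of synthesis and its branches 1 was higher and 0 lower. Of the other genes, Mbtps1, a protease that cleaves SREBPs, was higher by 0.15, Lamp1, Lamp2 and Lrp8 were higher, and Stard5 was lower by 0.29 on the log2 scale. That is 1 of 9 SREBP processing genes higher, and 3 higher and 1 lower of 20 genes of uptake, efflux and movement. Over all genes 11.0% were higher and 4.92% lower.

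**Figure D2:**
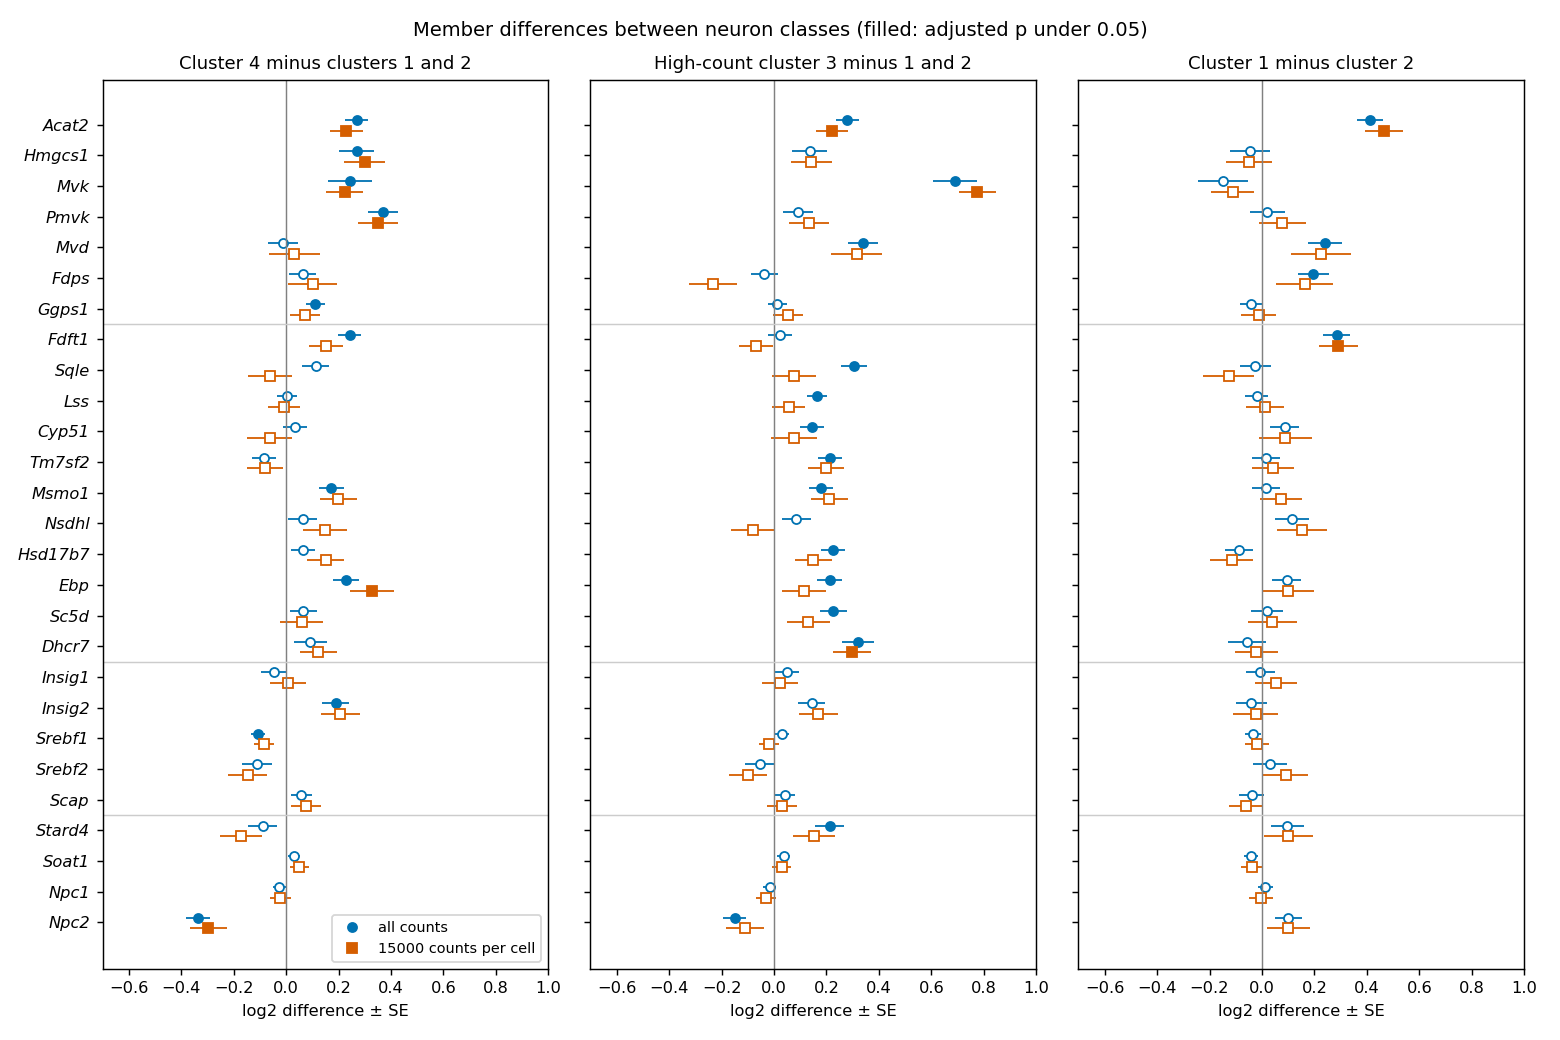
Log2 difference ± SE (horizontal axis) of the 27 tested members (vertical axis, grouped by role) for cluster 4 minus clusters 1 and 2, high-count cluster 3 minus clusters 1 and 2, and cluster 1 minus cluster 2. Circles use all counts, squares 1 draw of 15000 counts per cell, and filled symbols have an adjusted p under 0.05. Filled circles number 11, 14 and 4 in the 3 panels and filled squares 6, 3 and 2.

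Low-count cluster 3 held the least of these transcripts. The 54 cells carried 187436 counts in all, so levels rest on few counts, and endothelial, fibroblast and mural markers were raised in them. The 8 endothelial markers summed to 15.2 to 50.3 counts per 10000, against at most 1.35 in cluster 1 and 1.38 in cluster 2. The fibroblast sum was 0.327 to 44.1 (at most 0.130 in clusters 1 and 2) and the mural sum 2.40 to 28.6 (at most 1.38). The glial sum was 4.47, 25.04 and 4.15 in Sets 1, 2 and 3. It was 7.74 to 9.47 in cluster 1 and 8.37 to 10.9 in cluster 2, so glial markers were raised in Set 2 alone. No member difference of this class can be placed on one cell type, and the part of the mixture in the results was not tested.

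With all counts, 23 of 27 members were lower and 0 higher, but 47.3% of 11062 genes were lower and 5.85% higher, and the median of all genes was -0.12. Median-of-ratios size factors put that median at 0.19, a shift of over 0.1, so the members are read relative to it. At 1500 counts per cell, a depth that keeps every cell, 3 members were lower and 0 higher, against 2.45% and 2.59% of 10903 genes. Those 3 were Acat2 (-1.17, adjusted p = 0.038), Fdft1 (-1.89, adjusted p = 0.0049) and Fdps (-0.66, adjusted p = 0.015), and they passed in 12 of 12 settings other than all counts, leaving aside 5000 counts per cell, where 1 set alone gave a value. The mean of 10 draws of 1500 counts added Hmgcs1, Hsd17b7, Msmo1, Sqle and Srebf2, giving 8 lower and 0 higher, against 13.2% and 5.66% of 11036 genes.

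Fdft1 had 0.944, 1.63 and 0.873 counts per 10000 in low-count cluster 3, against 7.36, 6.98 and 8.69 in cluster 1 and 5.83, 5.17 and 7.36 in cluster 2. Pooled over cells it had 31 counts, or 1.65 per 10000 (95% Poisson interval 1.12 to 2.35, counting error only), which is 0.247 of the pooled level in clusters 1 and 2 (95% interval 0.168 to 0.351). Ctsb was lower with all counts too (-0.82, adjusted p = 0.017), and the part of shared reads was not tested. Acat2 had 0.825, 2.18 and 0.202, from 26 counts, a pooled ratio of 0.325 (0.212 to 0.477). Fdps had only 2 counts, none in Set 1 and 1 each in Sets 2 and 3, and its pooled ratio was 0.0759 (0.00918 to 0.274). For the pooled total the limit that a count of 0 allows, at 3 counts, is 0.160 per 10000, and Fdps had 1.41 in clusters 1 and 2.

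The pooled ratio was 0.539 for Msmo1 (0.361 to 0.774), 0.553 for Sqle (0.342 to 0.847), 0.444 for Srebf2 (0.192 to 0.877), 0.246 for Tm7sf2 from 3 counts (0.0508 to 0.722) and 0.724 for Hmgcs1 (0.528 to 0.969). For Mvd it was 0.583 (0.301 to 1.02), for Cyp51 0.553 (0.252 to 1.05) and for Hsd17b7 0.577 (0.232 to 1.19), intervals that reach 1. Pmvk (0.871), Mvk (0.890), Ebp (0.918) and Insig2 (0.989) had intervals on both sides of 1. Within the mevalonate arm the sets differed: Mvk had 0.635, 1.51 and 0.134 in Sets 1, 2 and 3. Many pooled ratios lean on Set 2, which gave 20 of 29 counts for Msmo1, 14 of 21 for Sqle and 7 of 8 for Srebf2. For Fdft1 it gave 14 of 31. For Mvk it gave 15 of 20, and the ratio from the means of the sets was 0.649.

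Npc2 had 5.73, 5.10 and 4.36 in low-count cluster 3, against 4.72, 4.11 and 4.56 in cluster 1 and 4.19, 3.63 and 4.42 in cluster 2. Its pooled ratio was 1.22 (0.982 to 1.49), from 94 counts. On the tested scale, cells' log2 values averaged, the difference with all counts had the opposite sign, -0.28 ± 0.111 (adjusted p = 0.070). At 1500 counts per cell it was 0.15 (adjusted p = 0.64), and neither value passed. Soat1 was higher by 1.71 with size factors (adjusted p = 0.025), on 4 counts, and differed by 0.03 in the main test. Idi1 had 0 counts, which allows up to 0.160 per 10000 and so says nothing against its 0.0408 in clusters 1 and 2. Among the other genes, Acly was lower and Scarb1, a lipoprotein receptor, was higher, as 1 of 2 uptake genes, at 1500 counts per cell (-1.12 and 0.62). That is 1 of 14 fatty acid genes lower and 2 of 24 genes of uptake, efflux and movement higher. Over all genes 2.45% were lower and 2.59% higher at that depth.

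**Figure D3:**
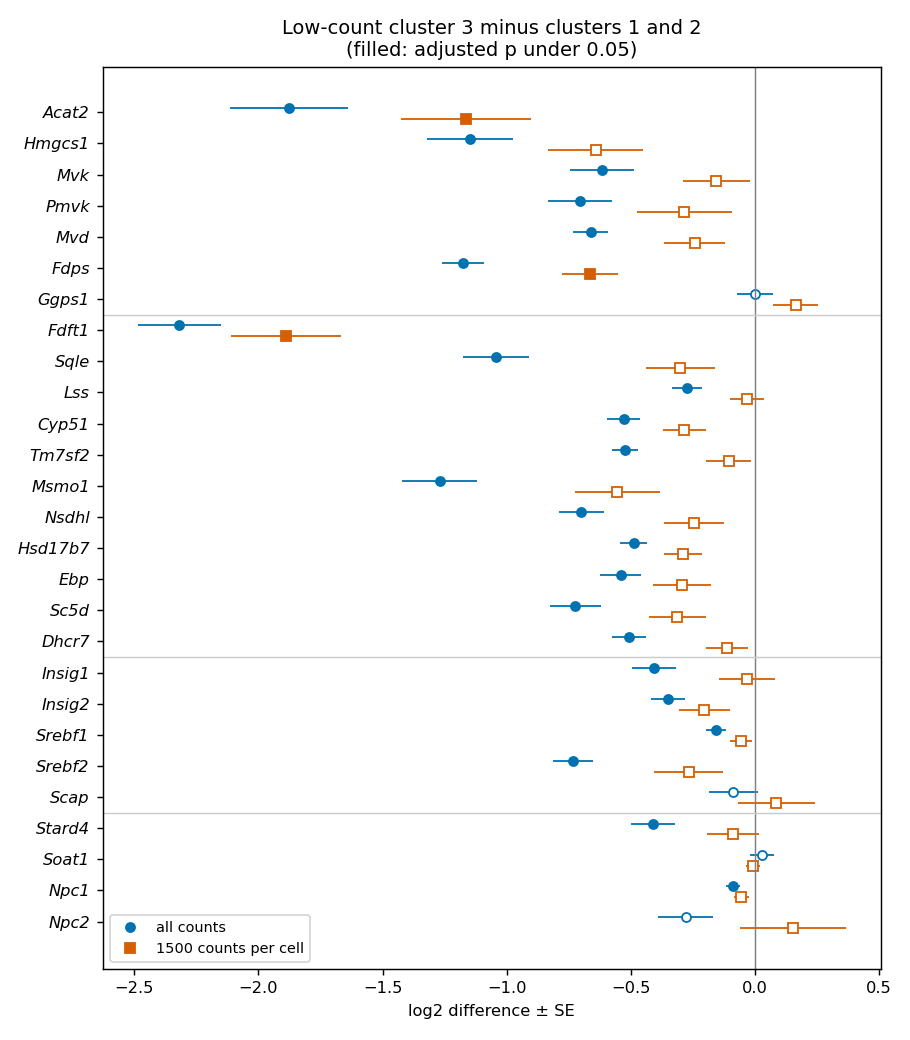
Log2 difference ± SE (horizontal axis) of the 27 tested members (vertical axis, grouped by role) for low-count cluster 3 minus clusters 1 and 2. Circles use all counts, squares 1 draw of 1500 counts per cell, and filled symbols have an adjusted p under 0.05. Circles lie below 0 for 26 members and 23 are filled; only Acat2, Fdft1 and Fdps are filled at equal depth.

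Some of these genes also differed between the sets, as did other genes of the table. The levels that follow are the mean of clusters 1 and 2 on each plate; plates within a set share their mice, so no test over mice is possible with 1 pool a set. In Set 3, every plate lay above every plate of Sets 1 and 2 for 5 of 27 members, Acat2, Fdft1, Sqle, Tm7sf2 and Msmo1, against 12.2% of all genes, and below for 0, against 7.44%. Acat2 ran from 5.65 to 6.40 on the 3 plates of Set 3 and from 3.56 to 4.16 on the 8 others. Sqle ran from 2.62 to 3.09 on plates of Set 3 and from 1.44 to 2.03 on the others.

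The ratio of Set 3 to the mean of Sets 1 and 2 for Acat2 was 1.70 in cluster 4, 1.54 in high-count cluster 3, 1.55 in cluster 1 and 1.65 in cluster 2. In low-count cluster 3 it was 0.134, the other way, on 26 counts. For Sqle it was 1.71, 1.74, 1.76 and 1.56 in the first 4 of these classes and 1.33 in low-count cluster 3. Ctsb, the partner of Fdft1, was also higher in Set 3, at 14.9 to 16.0 on its plates, where the other plates had 10.7 to 12.4. In Set 1, Mvk and Dhcr7 lay below all other plates, 2 of 27 against 3.00% of all genes, and 0 lay above, against 2.50%. In Set 2, Npc1 lay above and Npc2 below all other plates, 1 of 27 each, against 6.55% and 3.22%.

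Single plates stood out for Fdps. It had 1.85 on plate 8 of Set 2, where the other plates of that set had 0.962 to 1.02, and 2.97 on plate 11 of Set 3, where the others had 1.34 and 1.53. Hmgcs1, in contrast to Acat2, was highest in Set 2, with plate values of 3.11 to 4.29, and its sets overlapped.

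**Figure D4:**
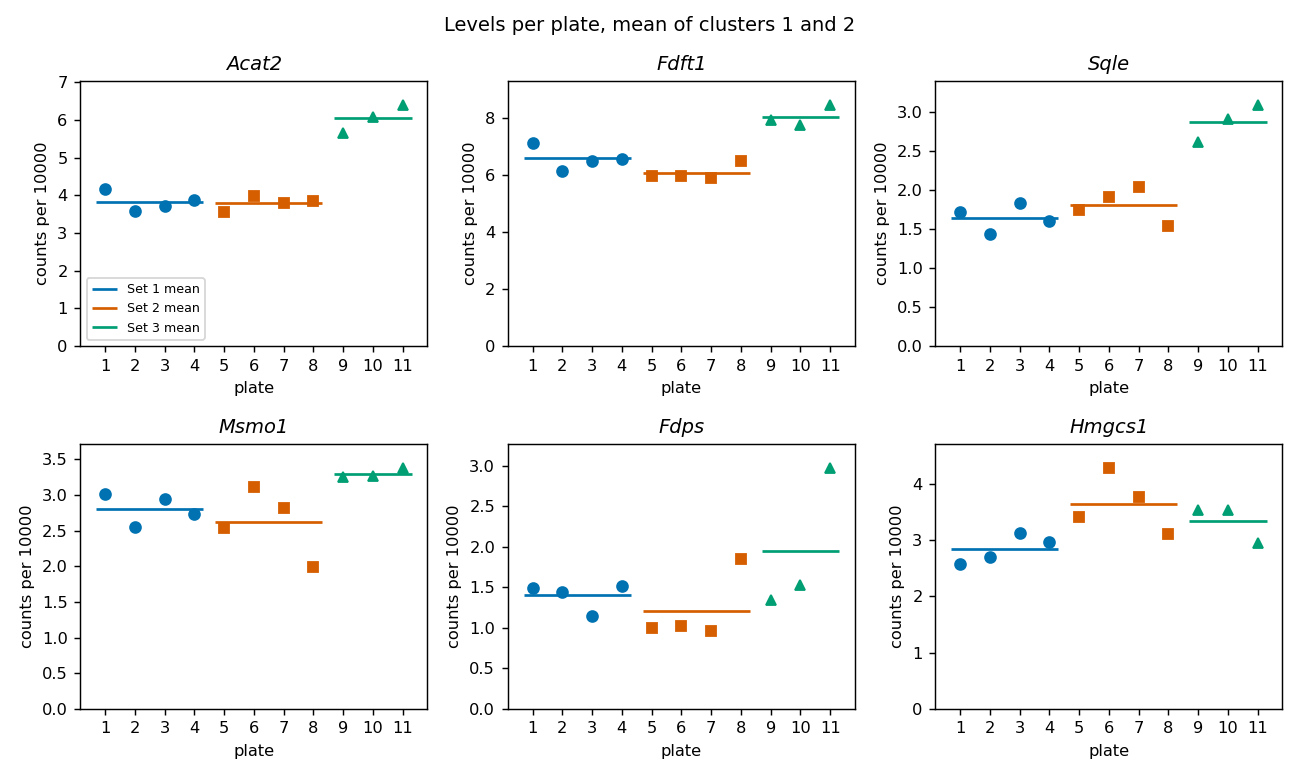
Level (counts per 10000, vertical axis) of 6 members on each of the 11 plates (horizontal axis), as the mean of clusters 1 and 2. Points are plates, lines the mean of each set. The 3 plates of Set 3 lie above all others for Acat2, Fdft1, Sqle and Msmo1; for Fdps, plates 8 and 11 stand above the rest.

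Measured correlations between members from cell to cell were weak. Counting noise at low counts pulls such values toward 0, by an amount that was not estimated. How strongly the genes vary together thus cannot be read from them. Over 11 members with at least 1 count per 10000 in each set of clusters 1 and 2, and cells thinned to 15000 counts, the median Spearman correlation of the 55 pairs was 0.05 in cluster 1 (367 cells) and 0.03 in cluster 2 (323 cells), averaged over the sets. Of these pairs 39 were above 0 in cluster 1 and 36 in cluster 2, 70.9% and 65.5%, where 50.6% and 50.3% of pairs of 1310 genes of like level were. The highest was 0.176 and 0.196, and 0 of 55 pairs exceeded 0.2 in either cluster. The median over pairs of the 1310 genes was 0.00084 in cluster 1 and 0.00051 in cluster 2.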

How the data were processed

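The authors deposited natural log values, ln(1 + counts per 10000), judged from the values themselves. Turned back, 100% of non-zero values gave a whole count (tolerance 0.001). Per the submitters' processing notes, the tools were Seurat, SAMtools 1.4.1, featureCounts 1.5.3 and the aligner STAR 2.5.3a, and the genome build was GRCm38. The cluster numbers are the authors'.

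The members, lists and comparisons were chosen with earlier results of these data known. limma 3.58.1 (R 4.3.3, trend and robust options, two-sided) was run on log2(1 + counts per 10000), averaged over cells per set and class, with the set as a block and genes averaging at least 0.05. Clusters 1, 2 and 4 and high-count cluster 3 shared a fit; low-count cluster 3 was fitted with clusters 1 and 2. Classes of the same set deviated together (correlations of 0.481 to 0.866, other sets -0.720 to 0.0736), and the labels place them in the same pool of mice. Full statistics are given for at most the 8 called members with the smallest p per comparison. Other settings were another scaling (median-of-ratios size factors, voom), depth, filter, pseudocount, no block, fewer classes or cells, and each set left out. Exact intervals and floors cover counting error only. No doublet caller was run. Gene positions come from GENCODE M21. Summaries and figures were made in Python 3.11.15 (matplotlib 3.10.9; scipy 1.17.1; pandas 2.3.3; numpy 2.4.6).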

Additional observations from a re-analysis of the deposited data

Results flagged for a closer look

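In the plate levels of clusters 1 and 2, a plate standing apart from the others of its set was looked for in 54 groups of 4 plates with Dixon's criterion at 95%, which chance alone meets in about 1 of 20 groups. It was met 2 times, both on plate 8 of Set 2. Fdps had 1.85 counts per 10000 there, where the other plates of the set had 0.962 to 1.02. Fdft1 had 6.48, where the others had 5.89 to 5.97. Set 3 has 3 plates and was not examined in this way.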

How the results depend on the processing

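The share of all genes that passed is not given for most settings below. Counts thus show how calls depend on the setting, not how members compare with other genes. Counts of members higher in cluster 4 than in clusters 1 and 2 (9) were 5 with size factors, with voom and at 15000 counts per cell, 1 at 5000, 0 at 1500 and 4 to 6 with a set left out. Those lower (2) were 1 with voom, at 15000 and 5000 counts and with a minimum mean of 0.5, 0 at 1500 counts, and 2 with any set left out. For cluster 1 against cluster 2 (4 higher, 0 lower), 9 were higher with voom, 2 at 15000 counts, without a filter and without glia-rich cells, 0 at 5000 and 1500 counts, and 2 with any set left out; 1 was lower with only the compared classes fitted. For high-count cluster 3 (13 higher, 1 lower), 3 were higher at 15000 and 5000 counts, 0 at 1500, and 8 to 10 with a set left out; 0 were lower at all 3 depths, without a filter, without glia-rich cells and with a set left out. For low-count cluster 3 (0 higher, 23 lower), 1 was higher with size factors and with voom and 3 at 5000 counts; 10 were lower with size factors, 9 with voom, 13 at 5000 counts, 3 at 1500, 8 in the mean of 10 draws, 11 with a pseudocount of 0.1 and 18 to 21 with a set left out. The 5000-count value rests on Set 2 alone, where 5 cells reach that depth, and that lone sample is assumed to vary like the other classes.

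Without the replicate block, 1 member was higher in cluster 4 and 2 lower, 0 were higher in cluster 1 than in cluster 2, and 2 were higher and 0 lower in high-count cluster 3; for low-count cluster 3, 22 were lower.

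Most sign changes came with thinning. In cluster 4, 5 of 11 called members turned at 1500 counts. In low-count cluster 3, 8 of 23 turned at 5000 counts. At 1500 counts the cluster 4 difference was -0.0684 for Acat2, -0.0601 for Hmgcs1, -0.0394 for Insig2, -0.00881 for Fdft1 and -0.00756 for Ggps1. In high-count cluster 3 it was -0.00086 for Cyp51, -0.0058 for Ebp and 0.0586 for Npc2 at 5000 counts, and -0.0389 for Mvd and 0.13 for Npc2 at 1500. In low-count cluster 3 at 5000 counts it was 0.0089 for Ebp, 0.0207 for Hsd17b7, 0.0090 for Insig2, 0.11 for Lss, 0.32 for Mvd, 0.22 for Npc1, 0.0588 for Nsdhl and 0.11 for Sc5d. Insig2 gave 0.0016 with voom and 0.0395 with a pseudocount of 0.1, and Npc1 gave 0.67 with size factors and 0.69 with voom. The causes were not tested, beyond the fewer counts that thinning leaves by construction.

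Depths of 1500 counts for all classes, the averaged draws and the comparisons with 1 cluster alone were added after the data were seen. Splitting cluster 3 at 20000 or 40000 counts gave the same cells. A count model was not run because the deposited unit is a log, and 15000 counts could not be fitted for low-count cluster 3, where 1 of 54 cells reaches that depth.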
